A study of Mus musculus with 6 samples.

Results

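Complex I (NADH:ubiquinone oxidoreductase) is the largest enzyme of the mitochondrial respiratory chain, and its nuclear genes are described here in IgM and IgG1 plasma cells of the mouse spleen. Members were all gene symbols starting with Nduf, pseudogene symbols left out, that reached an FPKM of 1 (mapped fragments scaled to transcript length and library size) in 3 or more of the 6 libraries. Of 45 such symbols 44 passed, among 9087 of 24346 symbols in all. They comprised 7 core subunits, 29 accessory subunits, 7 assembly factors and Ndufa4, which carries a complex I name but is now assigned to complex IV (cytochrome c oxidase). The cells were donor B cells with a congenic mark and the B1-8germ allele (a heavy chain gene that favours binding of the hapten NP), transferred into wild-type C57BL/6J hosts. All hosts were immunized with NP-CGG, NP on the carrier chicken gamma globulin, with alum as adjuvant, and 7 days later donor plasma cells were sorted from the spleen as IgM (3 libraries) or IgG1 (3 libraries). Both groups thus share donor genotype, host, antigen, tissue and time, and differ in the isotype of the sort. Whether libraries of 1 group came from separate mice is not in the labels, so the p-values cover the spread among these libraries, part of which may be technical.

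Complex I takes electrons from NADH in the mitochondrial matrix, passes them along a chain of iron-sulfur clusters to ubiquinone, and pumps protons across the inner membrane. Its core subunits carry out this chemistry, and the accessory subunits surround them and are needed for assembly and stability. The matrix arm holds the nuclear-encoded core subunits, while the membrane arm is built around core subunits encoded by mitochondrial DNA, for which 0 symbols were analysed here. Assembly factors, named Ndufaf, help build the enzyme and are not part of the finished complex. Plasma cells secrete large amounts of antibody, and respiration is among their sources of ATP.

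Promoters of 5 members are printed first as examples: Ndufs8, the core gene with the largest change (chr19:3912745-3912974 on the minus strand), Ndufb8 and Ndufb4, the accessory genes with the largest changes (chr19:44555413-44555642 on the minus strand and chr16:37654339-37654568 on the minus strand), Ndufa11, another accessory gene that was higher in IgG1 (chr17:56717562-56717791 on the plus strand), and Ndufa1, an abundant accessory gene that was not called (chrX:37191209-37191438 on the minus strand). The windows run from 200 bases before to 30 after the annotated start (RefSeq, GRCm38.p6). Capitals mark the letters of 3 motifs searched on both strands: that of nuclear respiratory factor 1 (NRF1; GCGC, then A, any base, and GCGC), that of ETS factors such as GABPA (CCGGAAG) and that of YY1 (AAGATGGCG), factors known for binding promoters of respiratory chain genes. Ndufs8 holds 1 ETS match, whose first base lies 15 bases after the start, Ndufb4 holds 3 NRF1 matches and Ndufa11 holds 1. None of these letters is in the windows of Ndufb8 and Ndufa1. Ndufa3, also higher in IgG1 and not printed, held 0 matches. Among members not printed, NRF1 matches lay in Ndufs6, which was called, and in Ndufa5, Ndufa6, Ndufa8, Ndufs5, Ndufaf4 and Ndufaf5, which were not. A link between the motifs and the change was not tested. Of 39 members with a promoter, 18 held at least 1 of the 3 motifs (46.2%), against 35.1% of tested genes.
Ndufs8: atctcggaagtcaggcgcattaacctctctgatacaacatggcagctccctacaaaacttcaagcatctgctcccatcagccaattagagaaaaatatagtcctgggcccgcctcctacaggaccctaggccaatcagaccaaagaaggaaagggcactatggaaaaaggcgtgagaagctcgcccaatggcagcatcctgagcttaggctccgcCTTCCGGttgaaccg
Ndufb8: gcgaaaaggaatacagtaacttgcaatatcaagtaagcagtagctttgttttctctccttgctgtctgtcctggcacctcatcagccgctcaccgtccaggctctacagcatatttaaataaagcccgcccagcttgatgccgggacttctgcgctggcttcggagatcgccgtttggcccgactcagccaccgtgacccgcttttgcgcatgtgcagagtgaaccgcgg
Ndufb4: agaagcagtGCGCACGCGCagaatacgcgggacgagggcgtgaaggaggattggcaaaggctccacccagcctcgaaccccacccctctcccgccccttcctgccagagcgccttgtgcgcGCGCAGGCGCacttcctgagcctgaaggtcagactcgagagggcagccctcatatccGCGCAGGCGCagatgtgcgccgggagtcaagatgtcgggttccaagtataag
Ndufa11: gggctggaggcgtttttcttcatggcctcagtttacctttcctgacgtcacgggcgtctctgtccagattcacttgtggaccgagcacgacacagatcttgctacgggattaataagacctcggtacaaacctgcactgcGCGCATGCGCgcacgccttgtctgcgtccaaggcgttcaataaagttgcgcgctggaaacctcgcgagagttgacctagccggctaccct
Ndufa1: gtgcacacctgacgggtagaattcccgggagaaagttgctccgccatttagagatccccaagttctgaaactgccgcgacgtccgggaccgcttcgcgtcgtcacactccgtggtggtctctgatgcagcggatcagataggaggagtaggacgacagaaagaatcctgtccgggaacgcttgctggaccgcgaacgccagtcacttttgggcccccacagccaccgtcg

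In the libraries as a whole, summed FPKM ranged from 730695 to 806599 in IgM and from 855123 to 914019 in IgG1. Depth was about 15400000 to 18200000 fragments, estimated from the most common low value of FPKM times transcript length, taken as 1 fragment. The plasma cell markers Xbp1 and Sdc1 were present in every library, at FPKM of 5354 to 6862 and 444 to 614. Of the 7 plasma cell markers measured, 4 were lower in IgG1 by limma (adjusted p under 0.05; 1.76% of all 9087 tested genes) and 0 higher (4.26%). The 4 were Tnfrsf17, Prdm1, Jchain and Irf4, with log2 fold changes of -2.92, -1.02, -0.77 and -0.73 (IgG1 minus IgM, of FPKM + 1). The T cell list summed to at most 4.44 FPKM in any library, the NK cell list to 9.18 and the erythroid list to 3.56, and Ncr1, Klrb1c, Nkg7, Pax5, S100a8 and S100a9 were at 0 in all 6. The B cell list summed to 122 to 153 in IgM and 97.2 to 122 in IgG1, and the 7 myeloid markers to 64.8 to 69.4 in IgM and 34.7 to 45.7 in IgG1, most of it Cd68. The part of these markers in the results that follow was not tested. No immunoglobulin heavy chain was analysed here, so the isotype rests on the labels.

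Complex I transcripts were mostly higher in IgG1 than in IgM plasma cells. Of the 44 genes 23 were higher in IgG1 by limma (adjusted p under 0.05) and 0 lower, against 4.26% higher and 1.76% lower of all genes tested. At an unadjusted p under 0.05, 34 were higher and 1 lower, against 11.9% and 10.2% of all tested genes. The log2 fold change (IgG1 minus IgM, of FPKM + 1) was positive for 40 genes, with a median of 0.47, while the median of all tested genes was -0.05. In 34 of the 44 the lowest IgG1 library lay above the highest IgM library, a pattern found in 13.7% of all tested genes, and in 1 the groups were separated the other way (13.5% of all). By role, 4 of 7 core subunits, 18 of 29 accessory subunits and 1 of 7 assembly factors rose, with median log2 fold changes of 0.47, 0.48 and 0.33. The differences between these classes were not tested. In bulk libraries a change in the share of cells that carry a transcript and a change in the amount per cell cannot be told apart.

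**Figure D1:**
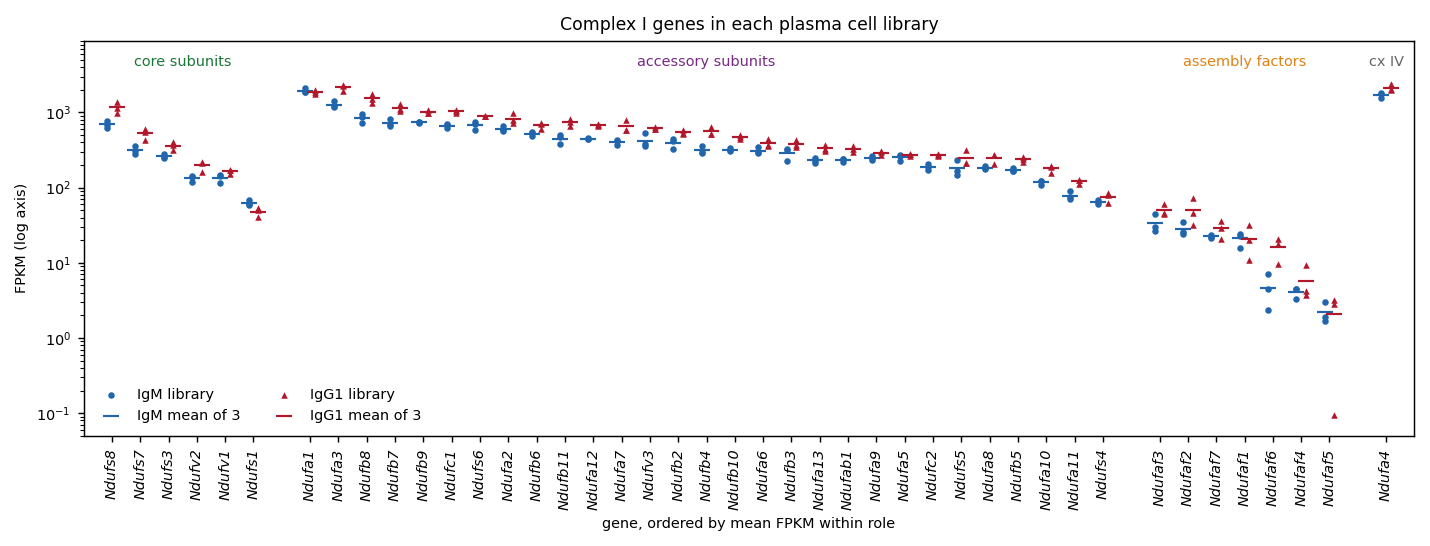
FPKM (log axis) of 43 of the 44 genes in each of 3 IgM (blue circles) and 3 IgG1 (red triangles) libraries, with short bars for group means, ordered by mean within each role. Mean levels of the subunits run from 55.6 to 1908 with the IgG1 libraries mostly above the IgM libraries, and those of the assembly factors from 2.15 to 41.7, with more scatter.

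Summed over the 43 complex I subunit and assembly genes, without Ndufa4, the share of all FPKM was 1.92%, 2.05% and 1.99% in the IgM libraries and 2.40%, 2.43% and 2.56% in the IgG1 libraries. Adding Ndufa4 gave IgM shares of 2.13%, 2.28% and 2.22% and IgG1 shares of 2.64%, 2.70% and 2.77%. On either sum the shares of the 2 groups do not overlap. With Jchain, the most abundant of the plasma cell markers measured, left out of the total, the means over the 44 genes were 2.29% ± 0.0699 in IgM and 2.75% ± 0.0643 in IgG1 (SD, n = 3 each).

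Transcript length moved with the comparison across all genes. Complex I transcripts are short: the median length was 866 nt for the members and 2486 nt for all tested genes (GENCODE vM21). Tested genes were divided by length into 5 bins of like size, and 32 of the 44 members fell in bin 1, the shortest. In bin 1, 14.5% of all genes were called higher in IgG1 and the median log2 fold change was 0.25, while the 32 members had 20 calls and a median of 0.54. In bin 2, 3.87% of all genes and 2 of 7 members were called, and in bin 3, 1.33% of all genes and 1 of 4 members. With each library's trend in length and GC content removed, called the correction from here on, 10 members were higher and 0 lower (2.00% and 0.918% of all genes), 38 were positive, and the class medians were 0.30 for core, 0.23 for accessory and 0.50 for assembly genes. The median over all tested genes was then 0.02. Across the 44 members, the Spearman correlation of the uncorrected log2 fold change with length was -0.12, and with GC content 0.42, given as a description of genes that share the same 6 libraries. Before the correction the correlation with length was 0.17 over the 29 accessory subunits and -0.36 over all tested genes. After the correction it was 0.48 over the 44, 0.71 over the 29 accessory subunits and -0.01 over all tested genes. The corrected values of the members thus rose with annotated length.

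**Figure D2:**
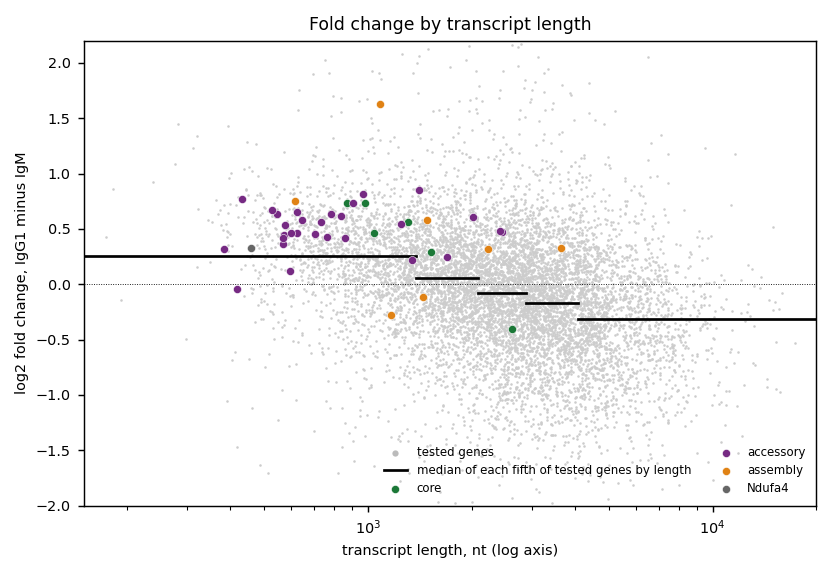
Log2 fold change (IgG1 minus IgM) against transcript length (log axis) for tested genes within the axis limits (grey) and 43 of the 44 complex I genes (coloured by role), with black lines at the median of each of 5 length bins. The medians run from 0.25 in the shortest bin to -0.32 in the longest, and the members' medians in bins 1, 2 and 3 were 0.54, 0.39 and 0.40.

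The number of calls depended on single libraries and on the modelling of the spread. It was 6 without IgM library 1, 10 without IgM library 3, and 9 without IgG1 library 2 and also without IgG1 library 3, and 0 without limma's intensity trend (23 higher and 0 lower at an unadjusted p under 0.05) or without the filter on low values (33 and 1). It was 7 with quantile-normalized values and 10 with libraries scaled to a common total that leaves out Jchain. That scaling shifted the median over all genes by -0.21. Ndufa1 was called lower with quantile-normalized values and with that scaling. Calls higher in IgG1 over all genes also fell from 387, to 78 without IgM library 1 and 185 without IgM library 3. They were 110 without IgG1 library 2 and 121 without IgG1 library 3. Without the intensity trend they were 3, without the filter 2, with quantile normalization 188 and with the scaling 177.

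Of the core subunits, Ndufs3, Ndufs7 and Ndufs8 of the ubiquinone-binding part of the matrix arm rose, and those of the NADH-binding tip (Ndufv1, Ndufv2 and Ndufs1) were mixed. Ndufs8, a ferredoxin-like subunit that holds iron-sulfur clusters, stood at FPKM of 630, 778 and 683 (IgM) against 996, 1133 and 1367 (IgG1) in libraries 1 to 3 of each group. The groups do not overlap, and the mean was 1.67-fold higher in IgG1 (log2 fold change 0.73, SE 0.13, limma adjusted p = 0.00980). The log2 fold change stands first in the brackets that follow. Ndufs7, which carries the terminal iron-sulfur cluster next to the quinone, was at 281, 362 and 309 (IgM) against 430, 604 and 556 (IgG1), again without overlap (0.73, SE 0.14, limma adjusted p = 0.0146). Ndufs3, a structural core subunit, also rose, with means ± SD (n = 3, IgM against IgG1, here and below) of 261 ± 19.7 against 362 ± 40.8 (0.47, limma adjusted p = 0.0454).

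At the NADH-binding tip, Ndufv2, which carries an iron-sulfur cluster, was at 120, 142 and 137 (IgM) against 161, 214 and 218 (IgG1) without overlap (0.56, SE 0.15, limma adjusted p = 0.0472). Ndufv1, which binds NADH and the flavin cofactor, was at 135 ± 18.6 against 165 ± 12.7 (0.29, limma adjusted p = 0.253). Ndufs1, the largest core subunit, with several iron-sulfur clusters, had the opposite sign. It was at 69.4, 59.5 and 61.01 (IgM) against 50.04, 53.0 and 40.6 (IgG1), so each IgG1 library lay below each IgM library, but the difference did not pass the threshold (-0.40, SE 0.17, limma adjusted p = 0.193). Its transcript was the longest of the core genes at 2626 nt, and its value after the correction was closer to 0 (-0.18, limma adjusted p = 0.613). After the correction Ndufs8 was the core gene past the threshold (0.44, limma adjusted p = 0.0261), and Ndufv2 (0.61, limma adjusted p = 0.0669), Ndufs7 (0.34, limma adjusted p = 0.171) and Ndufs3 (0.26, limma adjusted p = 0.202) were not. With each library left out in turn, Ndufs8 kept its call in 5 of 6 fits (largest limma adjusted p = 0.0527), Ndufs7 in 2, Ndufv2 in 1 and Ndufs3 in 0.

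Among the accessory subunits of the membrane arm, 13 of 19 were higher in IgG1 and 0 lower (median 0.54). Ndufb8, in the distal membrane arm, showed the largest log2 fold change of the subunits. It was at 728, 954 and 883 (IgM) against 1345, 1519 and 1780 (IgG1), which is 1.81-fold higher without overlap (0.85, SE 0.13, limma adjusted p = 0.00522). Ndufb4, also distal, was at 292, 363 and 300 (IgM) against 513, 521 and 647 (IgG1) (0.81, SE 0.13, limma adjusted p = 0.00665). Ndufa3, a small subunit of the proximal membrane arm, was at 1203, 1439 and 1176 (IgM) against 1930, 2236 and 2342 (IgG1) (0.77, SE 0.11, limma adjusted p = 0.00474). In these 3 genes each IgG1 library exceeded each IgM library. Ndufb11, whose loss blocks assembly of the membrane arm, was at 378, 495 and 472 (IgM) against 744, 665 and 826 (IgG1) (0.74, SE 0.13, limma adjusted p = 0.00923). Ndufc1, a small membrane subunit, was at 612, 690 and 700 (IgM) against 1062, 1056 and 998 (IgG1) (0.64, SE 0.10, limma adjusted p = 0.00589). These 5 genes kept the call in all 6 fits that left out a library, and all 5 kept it after the correction, at 0.79, 0.62, 0.34, 0.52 and 0.50.

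The other 8 membrane arm subunits past the threshold were Ndufb5, Ndufb7, Ndufb9 and Ndufb10 of the distal part, and Ndufa10, Ndufa11, Ndufa13 and Ndufc2. Ndufb7 was at 732 ± 78.9 against 1150 ± 124 (0.65, limma adjusted p = 0.0102). Ndufb10 was at 319 ± 16.1 against 471 ± 32.2 (0.56, limma adjusted p = 0.0133), and Ndufb9 at 742 ± 19.9 against 1018 ± 51.3 (0.46, limma adjusted p = 0.0191). Ndufb5 was the least abundant of these 4 distal subunits, at 172 ± 8.89 against 238 ± 16.8 (0.46, limma adjusted p = 0.0415). Ndufa10, a subunit with a nucleoside kinase fold, was at 118 ± 8.94 against 180 ± 21.4 (0.61, limma adjusted p = 0.0255), and Ndufa13, known also as GRIM-19, was at 230 ± 19.5 against 335 ± 34.8 (0.54, limma adjusted p = 0.0261). Ndufa11, needed for stability of the membrane arm, was at 78.3 ± 10.6 against 122 ± 8.74 (0.64, limma adjusted p = 0.0288), and Ndufc2 at 188 ± 16.3 against 271 ± 5.17 (0.53, limma adjusted p = 0.0224). In all 8 the lowest IgG1 library lay above the highest IgM library. Of the 8, Ndufa10 kept the call after the correction (0.62, limma adjusted p = 0.0301). With each library left out in turn, Ndufb7 kept the call in 5 of 6 fits and Ndufb10 in 3. Ndufa10, Ndufa13, Ndufb9 and Ndufc2 kept it in 2 each, Ndufa11 in 1 and Ndufb5 in 0.

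Ndufa1, a very small membrane subunit needed for assembly, did not follow the others. It had the highest mean of the complex I subunits in IgM, and its libraries were at 1861, 2098 and 1855 (IgM) against 1867, 1785 and 1982 (IgG1). The groups overlap (-0.04, SE 0.10, limma adjusted p = 0.833). Its transcript is 419 nt long, and its value after the correction did not pass the threshold (-0.33, limma adjusted p = 0.0617). Of the membrane arm subunits not called, the other 5, Ndufa8, Ndufb2, Ndufb3, Ndufb6 and Ndufs5, were positive, from 0.37 to 0.48. Ndufb2 came closest, at 395 ± 64.9 against 547 ± 37.6 (0.48, limma adjusted p = 0.0545), and was called after the correction (0.61, limma adjusted p = 0.0301). The correction used an annotated length of 2413 nt, a median over transcripts that may not be the length the authors used. Another length was not tested. Without the correction, Ndufb2 was called with a pseudocount of 5, a filter at FPKM of 5 and median centring. It was also called with the replicate number as a block and without IgM library 2, but in no other uncorrected fit.

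Among the 9 accessory subunits of the matrix arm, 4 were higher and 0 lower (median 0.42). Ndufa12, which lies between the NADH and quinone modules and is a paralogue of the assembly factor Ndufaf2, was at 437, 457 and 440 (IgM) against 651, 686 and 710 (IgG1), 1.53-fold higher in IgG1 (0.62, SE 0.10, limma adjusted p = 0.00665). The libraries of each group lay close together and far from those of the other. It kept the call in all 6 fits that left out a library and after the correction (0.41, limma adjusted p = 0.0247). Ndufa7 was at 407 ± 35.05 against 653 ± 127 (0.67, limma adjusted p = 0.0179), Ndufv3 at 422 ± 91.5 against 621 ± 22.4 (0.58, limma adjusted p = 0.0352), and the zinc-binding subunit Ndufs6 at 683 ± 85.7 against 907 ± 2.196 (0.42, limma adjusted p = 0.0485). These 3 were not past the threshold after the correction, at 0.25, 0.20 and 0.08. Ndufa7 kept the call in 4 of the 6 fits that left out a library, and Ndufv3 and Ndufs6 in 1 each. Ndufs4, mutated in some patients with Leigh syndrome, a neurological disease of mitochondrial respiration, had the lowest mean FPKM of the accessory subunits and overlapping groups, at 68.1, 63.5 and 59.7 (IgM) against 79.8, 63.1 and 85.7 (IgG1) (0.24, limma adjusted p = 0.430). Ndufa5 was at 254 ± 26.8 against 275 ± 12.4 (0.12, limma adjusted p = 0.624), and its sign turned after the correction (-0.16), quantile normalization (-0.04) and scaling without Jchain (-0.11). Ndufa9, near the quinone site, was at 250 ± 16.1 against 291 ± 19.0 (0.22, limma adjusted p = 0.297), and Ndufa2 and Ndufa6 were at 0.44 and 0.32 (limma adjusted p = 0.0624 and 0.174), and Ndufa6 turned negative after the correction (-0.14). Ndufab1, the mitochondrial acyl carrier protein found in both arms, was at 234 ± 13.6 against 326 ± 27.4 (0.47, limma adjusted p = 0.0356). It kept the call in 1 of the 6 fits that left out a library, and also after the correction (0.69, limma adjusted p = 0.0174). The larger corrected value was computed with an annotated length of 2448 nt, with the same limit as for Ndufb2.

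**Figure D3:**
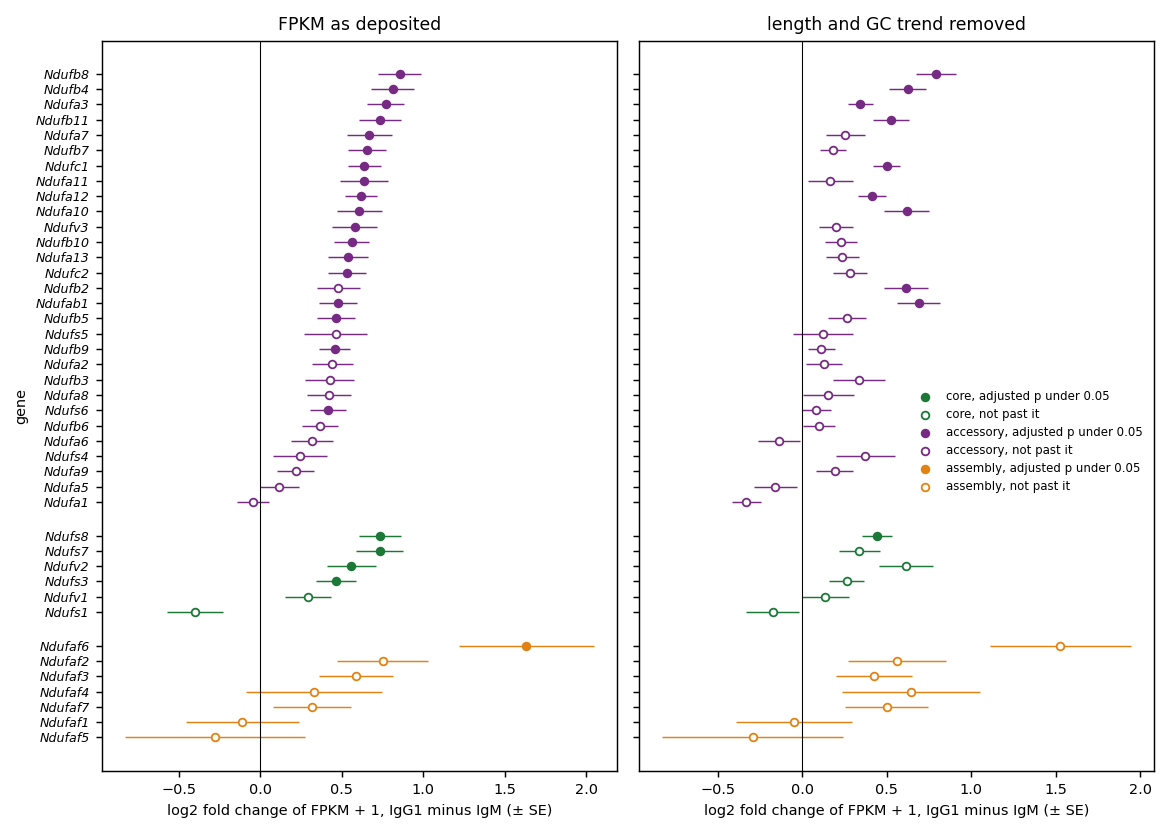
Log2 fold change (IgG1 minus IgM of FPKM + 1, bars ± SE) of core, accessory and assembly genes but 1, from FPKM as deposited (left) and with the length and GC trend of each library removed (right), filled where limma adjusted p was under 0.05. Ndufb8 leads the subunits on both sides at 0.85 and 0.79, Ndufs1, Ndufa1, Ndufaf1 and Ndufaf5 lie below 0 in both, and the accessory median moves from 0.48 to 0.23.

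The assembly factors were expressed far below the subunits they help to join, with a median of mean FPKM of 21.0 against 372 for the 36 subunits. They varied more between libraries (median coefficient of variation 22.1% in IgM and 40.6% in IgG1, against 8.98% and 10.6% for the subunits). Over all tested genes, whose median of mean FPKM was 12.8, that variation was 19.0% in IgM and 28.1% in IgG1. Ndufaf6, needed to assemble the module around the mitochondrial subunit ND1, was at 7.09, 2.38 and 4.44 (IgM) against 9.74, 20.7 and 18.03 (IgG1). The groups do not overlap, and the mean was 3.48-fold higher in IgG1 (1.63, SE 0.41, limma adjusted p = 0.0407). The call held in 1 of the 6 fits that left out a library and not after the correction (1.53, limma adjusted p = 0.0739). Ndufaf2, which acts late, where the NADH-binding module joins, was at 34.6, 24.02 and 25.5 (IgM) against 31.6, 46.5 and 71.7 (IgG1), and the groups overlap (0.75, limma adjusted p = 0.136). Ndufaf3, which acts early with Ndufaf4 on the quinone module, was at 29.95, 44.4 and 26.1 (IgM) against 44.4, 60.04 and 45.3 (IgG1) (0.58, limma adjusted p = 0.154), where the highest IgM and lowest IgG1 libraries almost meet. Ndufaf4 was at 4.09 ± 0.663 against 5.79 ± 3.19 (0.33, limma adjusted p = 0.709).

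Ndufaf7, a mitochondrial methyltransferase, was at 22.4 ± 1.22 against 28.9 ± 7.77 (0.32, limma adjusted p = 0.485). Ndufaf5, which hydroxylates Ndufs7, was the least expressed factor that passed the filter, at 1.703, 1.92 and 3.05 (IgM) against 2.87, 3.25 and 0.0955 (IgG1) (-0.28, limma adjusted p = 0.816). The spread of these low values is large beside any difference. Ndufaf1, a member of the mitochondrial complex I assembly (MCIA) complex, was at 24.5, 23.0 and 15.8 (IgM) against 31.7, 10.9 and 20.0009 (IgG1) (-0.11, limma adjusted p = 0.886). Ndufa4l2, a paralogue of Ndufa4, did not pass the filter and stayed below FPKM of 1 in every library. It was at 0.422, 0.659 and 0.154 (IgM) against 0, 0 and 0.0883 (IgG1). Of the 44 members, 43 had FPKM of at least 1 in every library, the exception being Ndufaf5 in IgG1 library 3. Ndufa4, the complex IV subunit, was at 1534, 1832 and 1736 (IgM) against 2043, 2362 and 1986 (IgG1) without overlap (0.32, SE 0.11, limma adjusted p = 0.1001), and its sign turned after quantile normalization (-0.05).

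**Figure D4:**
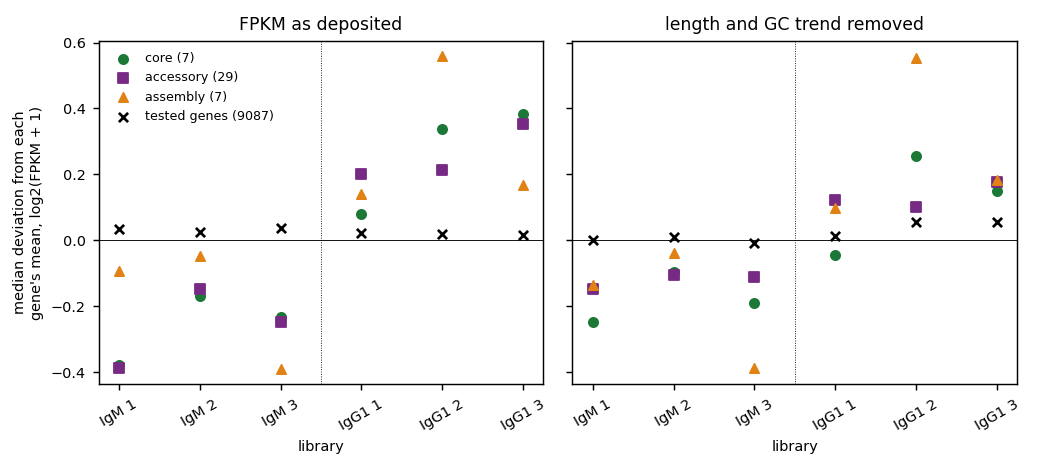
Median over the genes of each role of the deviation from the gene's own mean over 6 libraries, in log2(FPKM + 1), for FPKM as deposited (left) and after removal of the length and GC trend (right). Accessory medians run from -0.39 to -0.15 in IgM and from 0.20 to 0.35 in IgG1 on the left, and from -0.15 to -0.10 and from 0.10 to 0.18 on the right.

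The libraries of a group did not stand at one level. IgM library 2 had the highest FPKM of its group for 28 of the 36 subunits and IgM library 1 the lowest for 27. Among the IgG1 libraries, library 3 was the highest for 22 subunits and library 1 the lowest for 20. For the assembly factors the order differed, with IgG1 library 2 the highest for 5 of 7.

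Levels differed far more between subunits than between isotypes. On the FPKM scale, which is per transcript length, group means ranged from 63.3 (Ndufs1) to 1938 (Ndufa1) in IgM and from 47.9 (Ndufs1) to 2169 (Ndufa3) in IgG1. The order of the 36 subunits was almost the same in both groups (Spearman 0.99, a description over genes measured in the same libraries). Of the core subunits Ndufs8 stood highest and Ndufs1 lowest in both isotypes, and Ndufv1 and Ndufv2, neighbours in IgM, did not differ there beyond their spread.

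Of the genes outside the Nduf family that take part in complex I assembly, 14 were tested. By limma 1 was higher and 0 lower (4.26% and 1.76% of all tested genes), with a median of -0.06 and 6 of 14 positive. Tmem126a, which acts in assembly of the distal membrane arm, was at 61.9, 55.1 and 50.99 (IgM) against 92.7, 88.1 and 78.8 (IgG1) without overlap (0.62, limma adjusted p = 0.0380). The call held in 0 of the 6 fits that left out a library (largest limma adjusted p = 0.150) and was lost after the correction (0.55, limma adjusted p = 0.0708). At an unadjusted p under 0.05 there were 6 of 14, against 22.2% of all tested genes, and they split evenly by sign. Tmem126a, Foxred1 and Tmem261 were positive (0.62, 0.49 and 0.41), and Tmem126b, Tmem186 and Nubpl, which serves iron-sulfur cluster delivery, were negative (-0.76, -0.76 and -1.40). These genes besides Tmem126a were chosen after their values were seen. Of 12 tested regulators of mitochondrial biogenesis 0 were called in either direction by limma, against 4.26% higher and 1.76% lower of all tested genes. At an unadjusted p under 0.05 there were 2 of 12, against 22.2% of all tested genes, and the median was -0.04. The 2 with the highest means were Gabpb1, a partner subunit of GABPA, at 28.98, 31.3 and 25.99 (IgM) against 32.2, 44.5 and 44.2 (IgG1) (0.46, limma adjusted p = 0.209), and Nrf1, which encodes NRF1, at 29.5, 21.3 and 29.3 (IgM) against 23.6, 20.5 and 35.6 (IgG1) (-0.03, limma adjusted p = 0.959). Gabpa itself, which with Gabpb1 makes up the 2 at an unadjusted p under 0.05 and was named after its values were seen, had the opposite sign to Gabpb1, at 11.7, 12.1 and 9.27 (IgM) against 7.27, 6.697 and 4.22 (IgG1) (-0.79, limma adjusted p = 0.195).

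The members have several features that their choice did not use. They are spread over 16 chromosomes. In GRCm38, Ndufb8 lies on chromosome 19 from 44548572 to 44555440, Ndufs8 on chromosome 19 from 3908863 to 3912774, Ndufb4 on chromosome 16 from 37647170 to 37654453, Ndufa3 on chromosome 7 from 3617373 to 3620327, Ndufs1 on chromosome 1 from 63143596 to 63176833 and Ndufaf6 on chromosome 4 from 11051045 to 11076205, all annotated as protein-coding. A RefSeq promoter, from 250 bases before to 50 after the start, was found for 39 of the 44, and the median GC content was 59.3%, against 61.0% for 7031 tested genes. The NRF1 letters were found in 9 of the 39 (23.1%), against 12.6% of the tested genes' promoters and 4.78% of all 27025. The YY1 letters were found in 5 (12.8%, against 4.15% and 1.49%), and the ETS letters in 5 (12.8%, against 22.5% and 9.12%). Matches of different motifs did not overlap in the members. A match describes the letters of the window and does not show that a factor binds there.

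Some members' values carry a limit from shared sequence. Exons of 12 members overlap those of another protein-coding gene, among them Ndufb8, Ndufa3, Ndufs3, Ndufs6, Ndufb11 and Ndufaf3. Whether counting used strand is not given in the labels. For Ndufb8, Ndufb9 and Ndufb2 an overlapping gene lies on the same strand (Gm20538, Gm49356 and Gm42420), and it has no FPKM here. The opposite-strand neighbour of Ndufaf3, Impdh2, had means of 45.2 (IgM) and 60.2 (IgG1), above the 33.5 and 49.9 of Ndufaf3. Its log2 fold change was 0.40 (limma adjusted p = 0.173). The part of Impdh2 in the values of Ndufaf3 was not tested. Near-identical copies (at least 95% identity over at least 50% of the transcript) exist for Ndufs3, Ndufs5, Ndufs6 and Ndufb11. For Ndufs5, an accessory subunit of the membrane arm, the copy BC002163 has FPKM of its own, at 384, 344 and 431 (IgM) against 315, 500 and 501 (IgG1), while Ndufs5 was at 147, 230 and 166 (IgM) against 319, 215 and 214 (IgG1). IgG1 library 1 was thus the highest of its group for Ndufs5 and the lowest for the copy. Added together they gave 530, 574 and 598 (IgM) against 634, 715 and 716 (IgG1), which do not overlap, whereas those of Ndufs5 alone do.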

How the data were processed

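RNA was measured in 3 IgM and 3 IgG1 plasma cell libraries. Per the labels' protocols, cDNA came from a SMART-Seq HT kit and libraries from Nextera XT. The submitters' processing notes name mm10, TopHat2 2.1.1, Cufflinks 2.2.1, Cuffdiff and Bowtie2 2.3.5.1, with no role or order, and the annotation behind the values and any scaling across libraries were not stated there. The deposited values are FPKM, per the file headers, with 1 value per symbol, and were used without further scaling. FPKM holds no read counts, so the depth is an estimate. It takes the most common value of FPKM times transcript length, among low values, as 1 fragment.

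Genes past the filter (FPKM of 1 in 3 or more of 6 libraries) were fitted as log2(FPKM + 1), a scale that understates changes of low genes, with limma 3.58.1 in R 4.3.3 (eBayes with an intensity trend, two-sided). P-values were adjusted by Benjamini-Hochberg over all 9087 genes at a threshold of 0.05. The fit was tested on simulated data, with changes planted in genes of higher FPKM. It called 28% of 50 genes with a true log2 change of 0.5 and 94% of 50 with 1. Of its 169 calls 8 were false. A member that was not called is thus not shown to be unchanged. Transcript length and GC content are medians over GENCODE vM21 basic transcripts (99.5% of tested genes matched) and may differ from the models the authors used, and the correction subtracts each library's spline fit on both. The alternatives were other pseudocounts, filters, scalings and variance models, the correction, the replicate block and leaving out each library. Named genes were all core and assembly members and, of the accessory subunits, those called, the 3 highest, the 3 lowest and the 3 with the lowest log2 fold change. Ndufa2, Ndufa6, Ndufa8, Ndufb2, Ndufb3, Ndufb6 and Ndufs5 fall outside this rule and were named after their values were seen, to account for the members. The values of 1 member are not reported here and it is in no plot of single genes, but it stays in every count and median. Of each other pathway list, the genes called or else the 2 highest were named. The members and lists were chosen with earlier results of these data known.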

Additional observations from a re-analysis of the deposited data

How the results depend on the processing

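Across all genes 387 were higher and 160 lower in IgG1, and of the complex I genes 23 were higher. These 3 counts were 181, 83 and 10 with the length and GC correction, 2, 4 and 0 without the filter, and 3, 5 and 0 without the intensity trend. With quantile normalization 188 genes were higher, 7 of them complex I genes. With libraries rescaled to a common total without Jchain 177 were higher and 393 lower, and 10 complex I genes were higher. The median log2 fold change over all tested genes was then -0.25. As deposited, the mean summed FPKM with Jchain was 764938 in IgM and 882394 in IgG1. The share of higher among all calls was 70.7% as deposited, 80.6% with median centring, 48.5% with quantile normalization and 31.1% with rescaling. The count of complex I genes called lower was 0 as deposited, and 1 (Ndufa1) with quantile normalization, with rescaling and with the replicate block plus correction. Core and accessory medians (0.47 and 0.48) were 0.30 and 0.23 with the correction, 0.26 and 0.29 with quantile normalization and 0.24 and 0.25 with rescaling. The assembly median (0.33) was 0.58 with a filter at 5, which Ndufaf4 and Ndufaf5 did not pass, 0.14 with rescaling, 0.50 with the correction and 0.27 to 0.54 with a library left out, the highest without IgG1 library 1. The IgM share of summed FPKM of the 44 genes was 2.29% without Jchain in the sum and 2.21% with it. Beyond the genes and libraries each setting leaves out, the cause was not tested. With each library left out in turn, 78 to 394 genes were higher and 30 to 251 lower, and 6 to 20 complex I genes were higher and 0 lower. The 6 members Ndufa3, Ndufa12, Ndufb4, Ndufb8, Ndufb11 and Ndufc1 were called in all 6 of these fits, and 0 members in all 19 alternatives.

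With the replicate number as a block, 21 complex I genes were higher, 20 of them among the 23, and 432 genes were higher and 154 lower in all. The replicate block with the correction gave 11 complex I genes, and core and accessory medians of 0.30 and 0.23. Deviations of libraries with the same number had correlations of 0.10, -0.03 and -0.0006, so the numbers were not taken as pairs.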
